A study of Mus musculus with 8 samples.

Results

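The 10 genes described here encode precursors of neuropeptides, the short secreted peptides through which neurons, endocrine cells and some epithelial cells signal. They are Nts (neurotensin), Nmu (neuromedin U), Cck (cholecystokinin), Penk (proenkephalin), Gal (galanin), Vip (vasoactive intestinal peptide), Sst (somatostatin), Npy (neuropeptide Y), Tac1 (the tachykinin precursor that gives substance P) and Calca (calcitonin and calcitonin gene-related peptide, CGRP). They are 10 of the 21154 genes with a symbol on the array, and were taken through every non-control probe whose RefSeq accession maps to 1 of these symbols, which gave 11 probes. Sst was printed as 10 spots of its probe and Calca had 2 probes. The set was chosen by the EED cKO against control log2 differences of these same arrays, which were known when it was drawn up, so that difference is given for the 10 genes as a description, without a test.

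RNA came from back skin epidermis of newborn (P0) C57BL/6 mice, which was peeled from the dermis after dispase and dissociated with trypsin. The EED cKO animals carried K14-Cre and EED flox/flox, so that EED, a core subunit of the Polycomb repressive complex PRC2, was deleted in cells with an active Krt14 promoter, that is in basal epidermal keratinocytes and the cells that descend from them. Controls are labelled CTL, with no allele given, and all 8 animals were untreated. Each of the 4 EED cKO and 4 control samples, labelled as biological replicates, was hybridized against Universal Mouse Reference RNA, a commercial mixture, with the sample in Cy3 on replicates 1 and 3 and in Cy5 on replicates 2 and 4 of both genotypes.

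Neuropeptides are made as larger precursors that pass through the secretory pathway, where proprotein convertases, carboxypeptidases and amidating or cyclizing enzymes trim them. They are stored in dense core granules, are released by calcium-dependent exocytosis, act on G protein-coupled receptors and are ended by peptidases on the cell surface. In skin they are best known from sensory nerve endings and from Merkel cells, mechanosensory cells of the epidermis that hold dense core granules, while the cell bodies of sensory neurons lie outside the skin.

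A level is given throughout as the log2 ratio of the sample over the reference RNA on the same array, and a difference as the mean level in EED cKO minus the mean level in control. A spot counts as well above background by the scanner software's own flag in the sample channel. A gene passed the filter when its probe had that flag on 3 or more arrays of either genotype. A gene was called at a limma adjusted p below 0.05 together with at least a 2-fold difference.

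Across the arrays, 51.5% to 65.5% of spots were well above background and 0 spots were saturated. All 8 arrays were on the same slide, with the genotypes in separate rows, so slide row and genotype cannot be told apart. Eed had log2 ratios of -1.74, -2.04, -1.78 and -1.66 in EED cKO and -0.18, -0.46, -0.31 and -0.43 in control, which is 2.75-fold lower in EED cKO, although the place of this probe relative to the deleted part was not determined. The 7 keratinocyte markers with a probe were well above background on all 8 arrays. The mean log2 ratio of 4 Y-linked genes was 1.19 and 1.02 on control replicates 2 and 3, and between -1.51 and -1.31 on the other 6 arrays. Of 23202 genes and other targets tested, 283 (1.22%) were called, 258 higher and 25 lower in EED cKO, and with median centring in place of loess the split was 156 higher and 57 lower.

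Nts, Nmu and Cck were at least 2-fold higher in EED cKO, whereas Penk, Gal, Npy and Tac1 were less than 2-fold apart and Vip, Sst and Calca did not pass the filter. At least a 2-fold higher level, without a test, was found for 1.15% of all targets tested, and this contrast was known when the genes were chosen. Among the 7 genes that passed the filter, Nts, Nmu, Cck and Tac1 had their lowest EED cKO array above their highest control array, as 9.69% of all targets tested did. Tac1 passed the filter only through its EED cKO arrays.

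**Figure D1:**
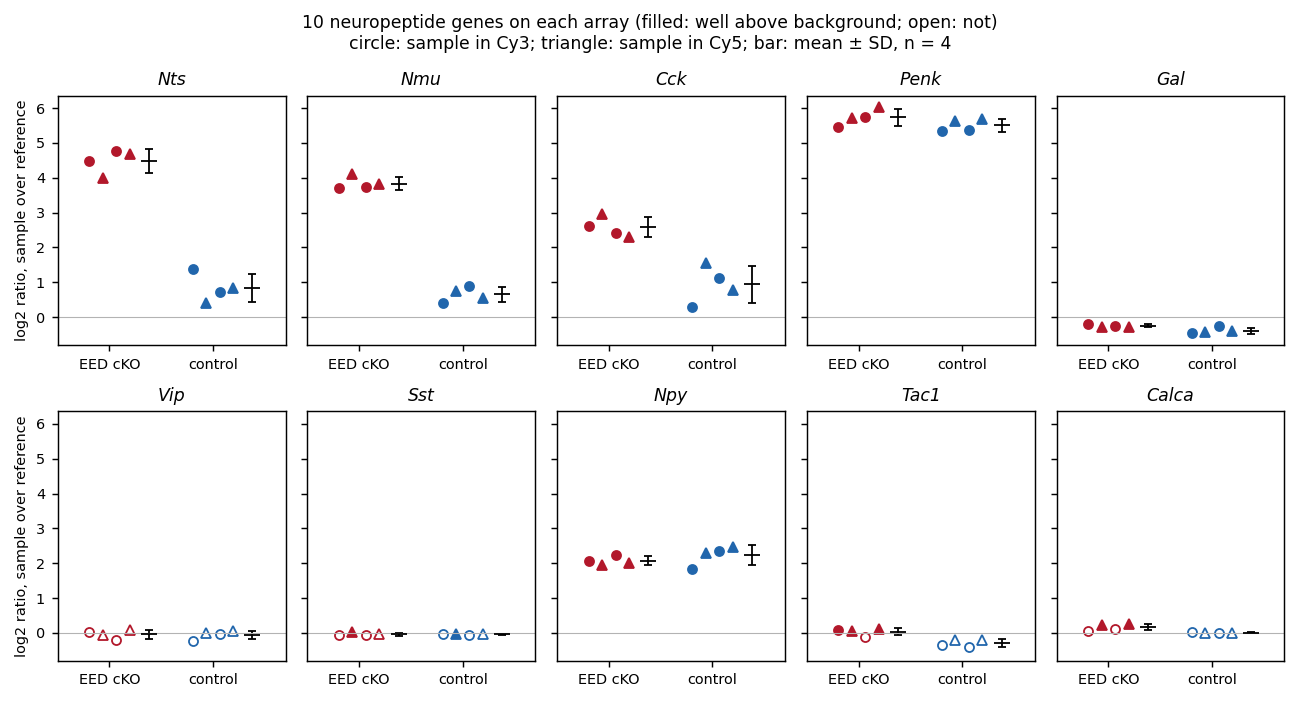
The log2 ratio of sample over reference (y axis) is plotted for each of the 10 genes on the 4 EED cKO and 4 control arrays, with filled points where the spot was well above background, open points where it was not, and bars for the mean and SD. The EED cKO and control points of Nts, Nmu and Cck form separate groups, those of Penk, Gal and Npy overlap, and most points of Vip, Sst and Calca are open and near 0.

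Nts encodes neurotensin, a peptide of the gut and brain that acts on smooth muscle, mast cells and dopamine neurons. Its log2 ratios were 4.49, 3.99, 4.76 and 4.68 on EED cKO replicates 1 to 4 and 1.37, 0.41, 0.71 and 0.85 on control replicates 1 to 4. The lowest EED cKO array was well above the highest control array, and neither group showed a split by dye. The difference was 3.65 ± 0.19 (SE, n = 4 and 4), or 12.5-fold, and it ranked 5 of 23202 by size of a rise. Before normalization the sample spot read 1063 to 1503.5 intensity units in EED cKO and 86.5 to 119 in control, over a local background of 21 to 27, and the reference spot read 61 to 109.5 on the same arrays. Nts was therefore measured above background in control epidermis too, on 4 of 4 arrays.

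Nmu encodes neuromedin U, a peptide that contracts smooth muscle and activates innate lymphoid cells. EED cKO arrays had log2 ratios of 3.70, 4.10, 3.74 and 3.81, and control arrays 0.42, 0.76, 0.90 and 0.54. Both groups were tight and did not overlap. The difference was 3.18 ± 0.12 (SE, n = 4 and 4), or 9.08-fold, ranking 9 of 23202. The sample spot read 457.5 to 946.5 in EED cKO and 49.0 to 87.5 in control, over a background of 21 to 27. The reference spot was well above background on only 5 of 8 arrays, so the level over the reference rests on a dim denominator, while the sample channel was well above background on all 8.

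Cck encodes cholecystokinin, a gut hormone and brain neuropeptide. The log2 ratios of Cck were 2.63, 2.96, 2.41 and 2.31 in EED cKO and 0.29, 1.55, 1.13 and 0.79 in control. The groups did not overlap, but the control arrays were spread over more than 1 log2 unit, with control replicate 2 the highest and control replicate 1 the lowest. The difference was 1.64 ± 0.23 (SE, n = 4 and 4), or 3.11-fold, ranking 68 of 23202. The sample spot read 213.5 to 439 in EED cKO and 49.0 to 129.5 in control, over a background of 20 to 26.

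These differences were of similar size within each dye. For Nts they were 3.58 where the sample was in Cy3 and 3.71 where it was in Cy5, for Nmu 3.06 and 3.31, and for Cck 1.81 and 1.47. Of 22 alternatives, leaving out each array in turn included, 6 returned the same difference for these single-probe genes by construction and the deposited table repeats the Feature Extraction log ratio. Over the 16 that moved the value, the folds were 9.71 to 16.2 for Nts, 6.08 to 11.3 for Nmu and 2.40 to 4.11 for Cck. With control replicates 2 and 3, the arrays high in Y-linked RNA, left out, the differences were 3.37 for Nts, 3.36 for Nmu and 2.04 for Cck. In bulk RNA more cells that make a peptide and more RNA in each such cell cannot be told apart.

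**Figure D2:**
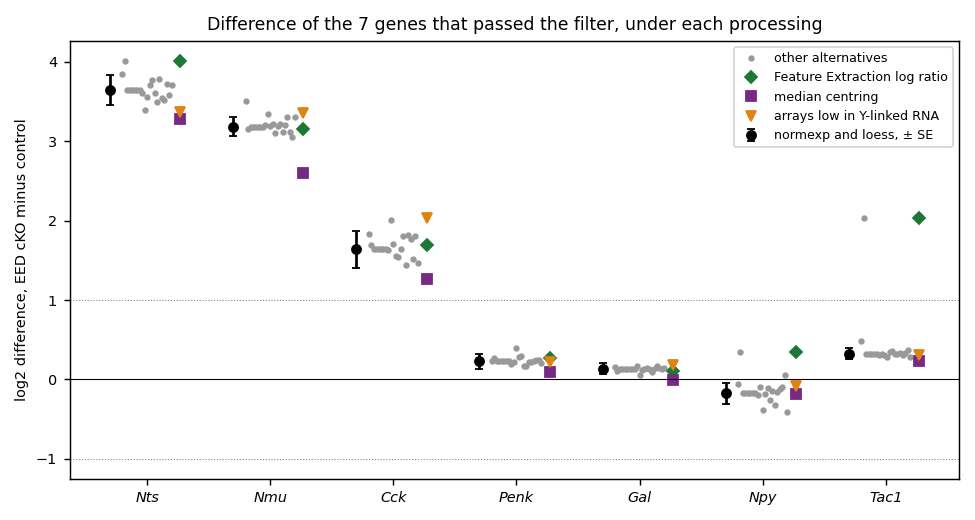
Log2 difference of EED cKO minus control (y axis) for the 7 genes that passed the filter. Black points show the value under normexp and loess with its SE, grey points the other alternatives, coloured points 3 named ones, and dotted lines a 2-fold difference. Every point of Nts, Nmu and Cck is above the upper dotted line, and Tac1 crosses it with the log ratios that subtract the background outright.

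The bases before the start of Nts, Nmu and Cck are shown because these 3 genes were at least 2-fold higher in EED cKO. The sequences are from RefSeq, build GRCm38.p6, 250 bases upstream of each start on the gene's own strand, and capitals mark matches to TGAGTCA or TGACTCA, the binding element of AP-1 factors on either strand, and to TGACG or CGTCA, the core of the cyclic AMP response element (CRE) on either strand. The positions are chr10:102490419-102490668, minus strand, for Nts, chr5:76363778-76364027, minus strand, for Nmu and chr9:121495695-121495944, minus strand, for Cck.
Nts: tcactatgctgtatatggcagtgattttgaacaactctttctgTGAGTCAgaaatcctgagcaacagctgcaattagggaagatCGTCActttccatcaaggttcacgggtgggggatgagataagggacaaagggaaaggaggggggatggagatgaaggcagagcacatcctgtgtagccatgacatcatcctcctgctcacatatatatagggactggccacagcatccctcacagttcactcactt
Nmu: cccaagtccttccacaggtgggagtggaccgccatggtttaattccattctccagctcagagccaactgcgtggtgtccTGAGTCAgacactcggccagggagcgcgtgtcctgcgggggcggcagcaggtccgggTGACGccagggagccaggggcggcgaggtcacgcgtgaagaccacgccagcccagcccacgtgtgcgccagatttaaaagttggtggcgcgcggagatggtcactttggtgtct
Cck: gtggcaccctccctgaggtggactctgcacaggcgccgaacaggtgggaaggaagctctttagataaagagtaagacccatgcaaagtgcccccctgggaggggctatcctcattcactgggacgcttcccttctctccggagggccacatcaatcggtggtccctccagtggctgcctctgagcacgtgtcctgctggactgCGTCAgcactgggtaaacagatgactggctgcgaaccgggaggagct

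Both Nts and Nmu held TGAGTCA, with its first base 207 and 171 bases before the start, respectively. Of 32851 RefSeq promoters, 4.46% held this element or its reverse complement in the same stretch, and Cck, Gal, Vip, Sst, Npy, Tac1 and Calca did not hold it. The CRE core stood 166 bases before the start of Nts, 114 before that of Nmu and 47 before that of Cck, and was found in 17.8% of promoters. It also occurred in Vip, Sst, Tac1 and Calca, and the full palindrome TGACGTCA, which contains it on both strands and occurred in 1.55% of promoters, only in Sst among the 9 genes matched, 48 bases before the start. Over 300 bases around the start, Nts held 3 CG dinucleotides, Cck 10 and Nmu 21, against a median of 7 over all promoters, so the 3 genes ranged from CG-poor to CG-rich. Penk is not among the genes matched. A match is a description of the letters and not a site.

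Penk encodes proenkephalin, the precursor of the enkephalins, which act on opioid receptors. Its log2 ratios were 5.45, 5.72, 5.74 and 6.04 in EED cKO and 5.33, 5.64, 5.37 and 5.70 in control. The groups overlapped, and every array of either genotype was far above the reference. The difference was 0.23 ± 0.09 (SE, n = 4 and 4), a 1.17-fold higher level in EED cKO. The sample spot read 8470.5 to 12169 in EED cKO and 4650 to 14246 in control, and the reference spot 231.5 to 369.

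Npy encodes neuropeptide Y, a transmitter of sympathetic neurons and of brain circuits for feeding. For Npy the log2 ratios were 2.06, 1.94, 2.24 and 2.02 in EED cKO and 1.84, 2.30, 2.35 and 2.46 in control. The EED cKO values lay inside the control range, and the control range was wider. The difference was -0.17 ± 0.13 (SE, n = 4 and 4), and it changed sign with the processing, since it was 0.06 with the sample in Cy3, -0.40 with the sample in Cy5 and 0.34 with the log ratio of the Feature Extraction software.

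Gal encodes galanin, a peptide of sensory neurons and of many brain regions. Its log2 ratios were -0.19, -0.29, -0.26 and -0.27 in EED cKO and -0.45, -0.43, -0.26 and -0.41 in control. The groups overlapped, since control replicate 3 lay above EED cKO replicates 2 and 4, and all arrays of both genotypes were below the reference. The difference was 0.14 ± 0.07 (SE, n = 4 and 4), and it was -0.00 with median centring.

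Tac1, the precursor of substance P and neurokinin A, was dim. Tac1 had log2 ratios of 0.08, 0.05, -0.10 and 0.10 in EED cKO and -0.36, -0.20, -0.41 and -0.20 in control. The spot was well above background on 3 EED cKO arrays and on 0 control arrays, so the control level is only a bound. Set against that bound, the EED cKO mean was 1.19-fold higher, and the measured means differed by 0.33 ± 0.07 (SE, n = 4 and 4). The fold is not a strict lower limit, because the EED cKO mean includes replicate 3, which was not well above background. The sample spot read 34.5 to 47.5 in EED cKO and 24.0 to 43.0 in control, over a background of 20 to 24. With the Feature Extraction log ratio the difference of the means was 2.03, or 4.09-fold, a size that rests on control spots not well above background.

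Calca, the source of CGRP, was well above background on EED cKO replicates 2 and 4 and on 0 control arrays with both of its probes. The levels of the brighter probe were 0.06, 0.23, 0.11 and 0.26 in EED cKO and 0.03, 0.00, -0.01 and -0.01 in control. The levels of the other probe were 0.16, 0.31, 0.28 and 0.59 in EED cKO and 0.03, 0.08, -0.01 and 0.16 in control. The groups did not overlap with either probe, at intensities of 25.0 to 57.0 for both genotypes together over a local background of 21 to 27. Both EED cKO arrays above background had the sample in Cy5. Set against the bound for control, the EED cKO mean was 1.11-fold higher with the brighter probe and 1.12-fold with the other. These folds are not lower limits, because the EED cKO means include replicates 1 and 3, which were not well above background.

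Vip was well above background on 0 of 8 arrays, with log2 ratios of 0.04, -0.07, -0.21 and 0.09 in EED cKO and -0.23, 0.01, -0.03 and 0.04 in control. The groups overlapped and no fold is given. Sst was well above background on replicate 2 of each genotype, and its log2 ratios stayed between -0.07 and 0.02 on all 8 arrays. The sample spot of Sst read 27.2 to 51.6 in EED cKO and 29.1 to 51.5 in control over a local background of 21.1 to 26.6. For Vip and Sst these arrays had no signal from which a difference between genotypes could be read.

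The named genes nearest to Nts, Nmu and Cck in pattern were found by the root mean square, over the 8 arrays, of the difference in log2 ratio after each gene was set to its control mean. Nearest to Nts were Cdkn2a, the locus of the cell cycle inhibitor p16INK4a, at 0.29, Hoxb13, a homeobox gene of the posterior body, at 0.41, and Krt6b, a stress keratin, at 0.50. Nearest to Nmu were Lce3f, a cornified envelope gene, at 0.14, Krt7, a keratin of simple epithelia, at 0.19, and Fxyd4, a regulator of the sodium pump, at 0.26. Nearest to Cck were Pmaip1, which encodes the apoptosis protein Noxa, at 0.14, Egr2, an immediate early transcription factor, at 0.22, and Ehf, an epithelial ETS factor, at 0.26. The probe of Hoxb13 was well above background on 0 control arrays and that of Lce3f on 2, so their distances are only approximate. These 9 genes were picked for likeness among all named genes that passed the filter.

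The wider neuropeptide pathway was followed in 4 lists with 134 genes in all, of which 88 passed the filter. At an adjusted p below 0.05 (limma) and any fold, 17 of the 88 were higher and 5 lower in EED cKO, which is 19.3% and 5.68%, against 11.8% and 9.93% of all targets tested. The other 66 did not pass the test. With median centring the counts were 8 higher and 5 lower, against 4.42% and 6.63% of all targets. At least 2-fold apart as well were 6 genes, all higher in EED cKO, which is 6.82% against the 1.22% above. The median log2 difference was 0.10 over the 88 genes and 0.02 over all targets.

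Among 53 other precursors, 29 passed the filter, 6 were higher and 0 lower, and 18 were well above background on no array. The shares were 20.7% and 0%, against 11.8% and 9.93% of all targets tested. Fewer were higher in 12 of 22 alternatives. There were 2 with median centring, against 4.42% of all targets, and 3 without the dye term, against 5.84%. Spx encodes spexin, a peptide that acts on galanin receptors. Its log2 ratios were 0.90, 2.15, 1.30 and 2.12 in EED cKO and -0.21, -0.36, -0.01 and -0.31 in control, with no overlap and with both Cy5 arrays of EED cKO above both Cy3 arrays. The difference was 1.84 ± 0.22 (SE; limma adjusted p = 0.00102), and it was 1.21 within Cy3, 2.47 within Cy5 and 3.33 with the Feature Extraction log ratio. Adm, which encodes adrenomedullin, a vasodilator peptide of the CGRP family, had log2 ratios of -2.01, -1.27, -1.88 and -0.93 in EED cKO and -2.89, -2.34, -2.58 and -2.55 in control. It rose by 1.07 ± 0.14 (SE; limma adjusted p = 0.00136), with 0.79 within Cy3 and 1.35 within Cy5, and lost its call, by falling under 2-fold, with median centring and without replicate 4 of either genotype. Pomc (the precursor of melanocortins and beta-endorphin), Oxt (oxytocin) and Gast (gastrin) were also higher, by 0.42, 0.38 and 0.38 with adjusted p = 0.0124, 0.0253 and 0.0157 (limma). Over 22 alternatives the adjusted p was not below 0.05 in 2 for Pomc, 8 for Oxt and 4 for Gast, median centring among them for each. Of the 8 for Oxt, 6 had 1 array left out, replicate 1, 2 or 4 of either genotype. Pomc reached 1.19 with the Feature Extraction log ratio.

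Among 33 receptors and receptor subunits for the 10 peptides, 16 passed the filter, 4 were higher and 0 lower. The shares were 25% and 0%, against 11.8% and 9.93% of all targets tested. Npy1r, a receptor of neuropeptide Y, had log2 ratios of 0.69, 0.88, 0.86 and 0.57 in EED cKO and -0.62, -0.69, -0.93 and -0.36 in control. The groups did not overlap, and the difference was 1.40 ± 0.12 (SE; limma adjusted p = 0.000156), or 2.37 with the Feature Extraction log ratio. Ramp3, an accessory subunit that gives the calcitonin-family receptors their ligand preference, had 0.71, 0.92, 1.11 and 0.94 in EED cKO and -0.56, -0.24, -0.29 and -0.34 in control, a difference of 1.28 ± 0.10 (SE; limma adjusted p = 0.000102). Its relative Ramp2 was higher by 0.77 (adjusted p = 0.00332, limma) and Sstr4, a somatostatin receptor, by 0.48 (adjusted p = 0.00955). The receptors Calcrl and Calcr, with which the Ramp proteins pair, were well above background on no array.

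The receptors of the peptides from Nts, Nmu and Cck did not pass the test or could not be measured. For neurotensin, Ntsr1 did not pass the filter, Ntsr2 was well above background on no array, and the sorting receptor Sort1 differed by -0.43 (limma adjusted p = 0.137), with its 2 other probes at -0.04 and 0.48. For neuromedin U, Nmur1 was well above background on no array and Nmur2 differed by 0.10 (adjusted p = 0.579). For cholecystokinin, Cckar was well above background on no array and Cckbr differed by 0.11 (adjusted p = 0.340).

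**Figure D3:**
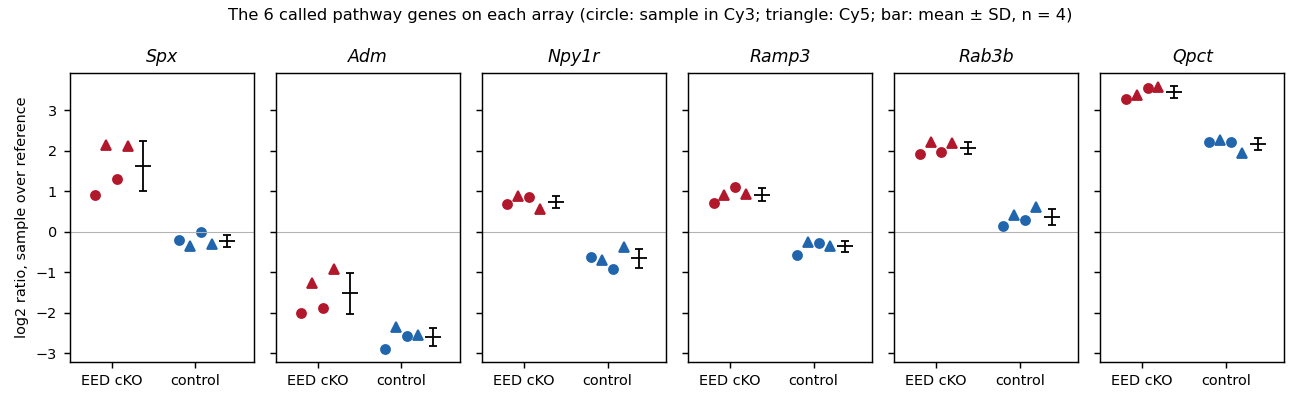
Log2 ratio of sample over reference (y axis) on each array for the 6 called genes of the pathway lists, with circles for arrays with the sample in Cy3, triangles for Cy5, and bars for the mean and SD. The groups are apart for all 6 genes, and the EED cKO points of Spx and Adm are split by dye.

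Among 35 genes of prohormone processing and the dense core granule, 31 passed the filter, 5 were higher and 3 lower. The shares were 16.1% and 9.68%, near the 11.8% and 9.93% of all targets tested. With the replicate number as a block 9 were higher and 3 lower, against 14.1% and 11.7% of all targets. Rab3b, a small GTPase of secretory vesicles, had log2 ratios of 1.92, 2.22, 1.98 and 2.20 in EED cKO and 0.15, 0.43, 0.28 and 0.61 in control. It rose by 1.71 ± 0.07 (SE; limma adjusted p = 1.5e-06). Qpct encodes the glutaminyl cyclase that forms the blocked amino end of peptides such as neurotensin. The log2 ratios of Qpct were 3.29, 3.39, 3.55 and 3.59 in EED cKO and 2.21, 2.27, 2.23 and 1.94 in control, with no overlap, and the difference was 1.29 ± 0.10 (SE; limma adjusted p = 9.2e-05). Chgb (chromogranin B), Rph3a (a Rab3 effector) and Scg5 (the chaperone of convertase PC2) were higher by 0.51, 0.36 and 0.34, and Rab3d, Tpst2 and the vesicle protein gene Vamp2 fell by 0.37, 0.36 and 0.34. The adjusted p was no longer below 0.05 with median centring for Chgb, Rph3a and Scg5. The same held without the dye term for Chgb and Vamp2, and with the Y-linked covariate for Vamp2. It also held on the arrays low in Y-linked RNA for Rab3d and Vamp2. Chgb reached 1.76 with the Feature Extraction log ratio. The convertases that cut most neuropeptide precursors were not among these, since Pcsk1 was well above background on no array and Pcsk2 differed by -0.23 (limma adjusted p = 0.173), with its other probe at -0.48. Chga and Cpe differed by 0.77 and 0.67 with overlapping groups (limma adjusted p = 0.0603 and 0.0714).

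Among 13 peptidases, 12 passed the filter, 2 were higher and 2 lower. The shares were 16.7% and 16.7%, against 11.8% and 9.93% of all targets tested. With the replicate number as a block 4 were higher and 2 lower. Mme (neprilysin), which cuts enkephalins and substance P, and Dpp4, which trims neuropeptide Y, were higher by 0.45 each (limma adjusted p = 0.00937 and 0.0165). Prep and Tpp2, which encode cytosolic peptidases, fell by 0.46 and 0.40 (limma adjusted p = 0.0120 and 0.00604). Mme passed the filter only through its EED cKO arrays, and its other probe was at 0.22. With median centring the adjusted p of Mme was not below 0.05, and its difference reached 1.77 with the Feature Extraction log ratio. The adjusted p of Dpp4 was not below 0.05 with median centring, without the dye term and without control replicate 2. That of Tpp2 was not below 0.05 without the dye term and on the arrays low in Y-linked RNA.

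**Figure D4:**
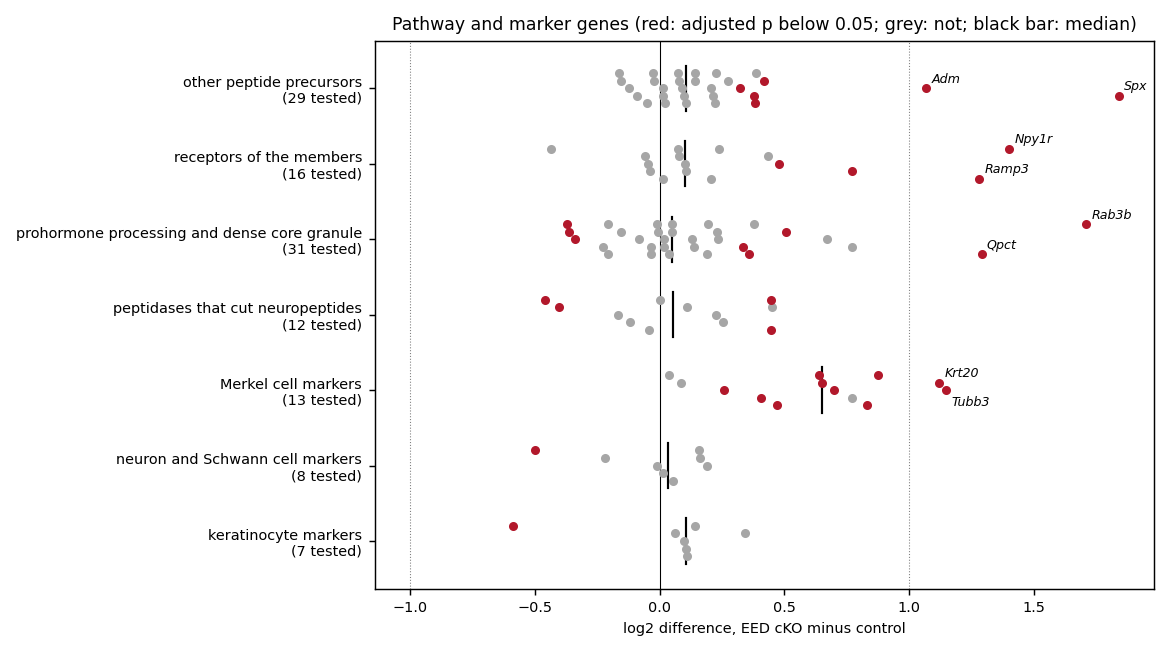
Log2 difference of EED cKO minus control (x axis) for each tested gene of the 4 pathway lists and of 3 marker lists (rows), red where the limma adjusted p was below 0.05, with a black bar at the median of each list and dotted lines at 2-fold. The medians of the pathway lists lie between 0.05 and 0.11, that of the Merkel cell markers at 0.65, and that of the neuron and Schwann cell markers at 0.03.

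Markers of Merkel cells were mostly higher in EED cKO as well. Of 14 listed, among them Chga and Rab3c of the granule list, 13 passed the filter. Of these, Atoh1, Isl1, Sox2 and Pou4f3 passed only through their EED cKO arrays, so that a positive difference is favoured for them. Of the 9 that passed in both genotypes 7 were higher at an adjusted p below 0.05 (limma), against 11.8% of all targets tested. Among them were Krt20 by 1.12, Krt8 by 0.65 and Krt18 by 0.47, while Chga and Rab3c did not pass the test. Counted over all 13, 10 were higher at that level. Fewer were higher in 9 of 22 alternatives, 8 with median centring and 8 without the dye term. The measured means of Atoh1 and Isl1, each well above background on 2 control arrays, differed by 0.88 and 0.83. Tubb3 was higher by 1.15, with 0.63 within Cy3 and 1.67 within Cy5. The mean log2 ratio over the list was -0.32 to -0.05 on EED cKO arrays and -0.82 to -0.61 on control arrays, and 12 of the markers had the flag on every EED cKO array against 9 on every control array. Sox2 was well above background on 0 control arrays, which leaves a bound of at least 1.24-fold higher for EED cKO. The part of Merkel cell number in the levels of the neuropeptide genes was not tested.

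Markers of neurons and Schwann cells were mostly near background. Of 16 listed, 8 passed the filter, 0 were higher and Sox10 fell by 0.50 (limma adjusted p = 0.0489). Its adjusted p was not below 0.05 in 13 of 22 alternatives. Among them was the omission of EED cKO replicate 1, 2 or 4 or of control replicate 2, 3 or 4. Nefl, Nefm, Scn9a, Scn10a and Mrgprd, which mark sensory neurons, were well above background on no array, and the mean log2 ratio over the list was -0.09 to -0.03 in EED cKO and -0.09 to -0.02 in control. Of the keratinocyte markers 6 of 7 did not pass the test, and Trp63, the p63 gene, fell by 0.59 (adjusted p = 0.00346) with its brighter probe and was at 0.04 with its other probe. The mean over the keratinocyte list was 4.03 to 4.53 in EED cKO and 3.91 to 4.54 in control. A few markers of other cells were higher in EED cKO at an adjusted p below 0.05 (limma). These were Pecam1 (0.89) and Kdr (0.62) of endothelium, Cd3e (0.54) and Cd74 (0.46) of immune cells, and Lum (0.50) of dermis. They are 2 of 7 tested endothelial, muscle and melanocyte markers, 2 of 4 immune and 1 of 7 dermal markers, against 11.8% of all targets. Of the 7 dermal markers 3 had a negative difference, and Cdh5 of endothelium was well above background on no array. The other probe of Kdr was at 0.03, and was well above background on only 1 array of each genotype. In 15 of 22 alternatives 1 immune marker in place of 2 was higher at an adjusted p below 0.05, not necessarily the same marker in each. The adjusted p of Lum was not below 0.05 with median centring, with the Y-linked covariate and on the arrays low in Y-linked RNA. The part of these other cells in the levels of the neuropeptide genes was not tested.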

How the data were processed

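The authors labelled epidermal RNA and Universal Mouse Reference RNA with dye swaps, hybridized them to Agilent mouse expression arrays and scanned these with Agilent Feature Extraction 12.0.1.1, whose spot and local background intensity per channel was deposited without normalization, beside a log10 ratio of the processed channels. Per the file headers and values, the deposited table holds log2 ratios of sample over reference that were equal within 0.01 to those of the processed signals, uncentred. Precision is limited by 4 arrays a group.

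Here the median spot signals were corrected by normexp (offset 50) and loess in limma 3.58.1 (R 4.3.3), swapped arrays were turned, spots of a probe were averaged, and a gene was represented by its probe of highest sample signal. RefSeq accessions named 28026 of 29796 probes (GRCm38.p6). Genotypes were compared over all 8 arrays by lmFit and eBayes, with terms for genotype and the sample's dye and p-values adjusted after Benjamini-Hochberg, with 19 missing values filled by the group mean. The fit was tested on simulated data. For a group never well above background, the bound sets the brighter mean against the higher, per array, of the dim probe's signal and the lowest signal well above background, after loess and Aquantile. The brighter mean is over all arrays of its group, whether or not they were well above background.

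The genes and lists were chosen with earlier results of these data known. Named from the lists are the called genes, up to 3 further per list at any fold, and markers; Chga, Cpe, Pcsk2 and the receptors of the 3 genes with the largest differences were named after their values were seen. Same-numbered arrays deviated together (correlations of deviations from group means 0.49, 0.68, 0.33 and 0.36, and 0.13 and 0.45 after the dye was removed), and the number also marks dye and slide column.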

Additional observations from a re-analysis of the deposited data

How the results depend on the processing

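Nts, Nmu and Cck were at least 2-fold higher in EED cKO under the 16 alternatives that moved their values, and the count of such genes among the 10 was 3 except with the log ratios of Feature Extraction or of the deposited table, where Tac1 made it 4. The called targets and pathway genes were 698 and 11 with the Feature Extraction log ratio, and 698 and 11 with the deposited log2 ratios. They were 5052 and 22 with no fold limit. The methods' t-test gave 280 called targets before and 177 after Benjamini-Hochberg adjustment, with 6 and 5 pathway genes. Dropping the fold limit can only add genes, and adjusting the p-values can only remove them. The deposited table repeats the Feature Extraction log ratio. Why that ratio and the methods' t-test gave other counts was not tested. Leaving out each array in turn gave 258 to 319 called targets and 5 to 7 pathway genes. With the replicate number as a block there were 285 called targets, 6 pathway genes and 3 of the 10 genes. At any fold the higher genes were then 9 in place of 5 in the processing and granule list and 4 in place of 2 among the peptidases. Over all targets the share higher was 14.1% in place of 11.8%, and the share lower 11.7% in place of 9.93%. The sample channel alone, each dye alone and the arrays low in Y-linked RNA were tried after seeing the data. Signal over background limits Tac1, Calca, Vip and Sst, and the reference channel of Nmu.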

Other observations

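On the 4 control arrays Cck was higher where Y-linked RNA was high, which is given without a test because only 4 arrays are involved. Control replicates 2 and 3, with mean Y-linked log2 ratios of 1.19 and 1.02, had Cck log2 ratios of 1.55 and 1.13, and control replicates 1 and 4, with Y-linked levels of -1.32 and -1.51, had 0.29 and 0.79. Nmu had 0.76 and 0.90 on the former and 0.42 and 0.54 on the latter, and Nts had 0.41 and 0.71 on the former and 1.37 and 0.85 on the latter. The 4 EED cKO arrays were all low in Y-linked RNA, between -1.40 and -1.31, so the EED cKO level in animals high in Y-linked RNA was not measured.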
